A study of Homo sapiens with 6 samples.

Results

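The 9 protein-coding genes VWF, DOCK1, NEMP1, CDKN3, RGS6, SHANK2, LRFN2, RNF125 and VEPH1 each held a tight cluster of sites at which a thymine was read as C. A site belonged to a gene when it lay between the start and the end of that gene in the RefSeq annotation of the human build hg38 (GRCh38.p14). Each gene was included because at least 2 of its sites lay within 50 bp of each other. The 9 genes held 19 of the 967 sites in all, 3 in VWF and 2 in each of the other genes. Distances between sites chose the genes, so they are given here as a description. Of 18 protein-coding genes that met the 50 bp limit, these are 9.

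The sites come from a search for 5-formyluracil in genomic DNA of the human cell line CAL-62, which is established and derives from a thyroid carcinoma. The study had 3 groups of 2 libraries: untreated input DNA, and DNA pulled down with the reagent azi-BIAN and made into libraries at pH 7.2 or at pH 8.8. At pH 7.2 the modified base is read as T and at pH 8.8 as C, per the labels. Only values of the 2 pH 8.8 libraries were used, and C reads at these positions in the input and pH 7.2 libraries were not analysed here. All libraries share 1 cell line, and nothing in the labels says that replicates came from separate cultures.

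5-Formyluracil is a thymine whose methyl group has been oxidised to a formyl group. It arises from reactive oxygen species and ionising radiation and is removed by base excision repair. In its neutral form it pairs with adenine like thymine, and its ionised form, favoured at higher pH, can pair with guanine. A polymerase then inserts G opposite the modified base, and the copy is read as C.

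Coverage at the 19 sites ran from 11 to 24 reads in library 1 (median 17, against 16 over all 967 sites) and from 12 to 24 in library 2 (median 14, against 14). These reads included 4 to 7 with C in library 1 and 3 to 9 in library 2. Over all sites the C reads numbered 3 to 14 in each library. As read from its values, the table lists a site only where each library had 10 or more reads, 3 or more of them with C, and a share of C reads (C share) above 20% and below 50%. C shares below or above that range could therefore not appear. All intervals given are 95% Wilson intervals, and they cover counting error only, since PCR copies are not independent molecules.

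Within each cluster the sites lay between 1 and 28 bp from first to last, with a median of 4 bp over the 9 genes. Counted between neighbouring sites, there were 10 pairs, 7 of them at 1 to 5 bp and 3 at 14 to 23 bp. The widest gap was that between the last 2 sites of VWF, and the next were the 14 bp of SHANK2 and of RNF125. Near the 50 bp limit lay genes outside these 9, with a closest pair at 47 bp in PTPRT just inside it and at 70 bp in GARNL3 just outside. The T of both sites was on the same strand in 7 of the 10 pairs, against 16 of the 32 other pairs of neighbouring sites within 50 bp. At 1 to 5 bp the counts were closer, 5 of 7 against 8 of 12. At 14 bp and over they were 2 of 3 against 1 of 7, and the difference was not tested.

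**Figure D1:**
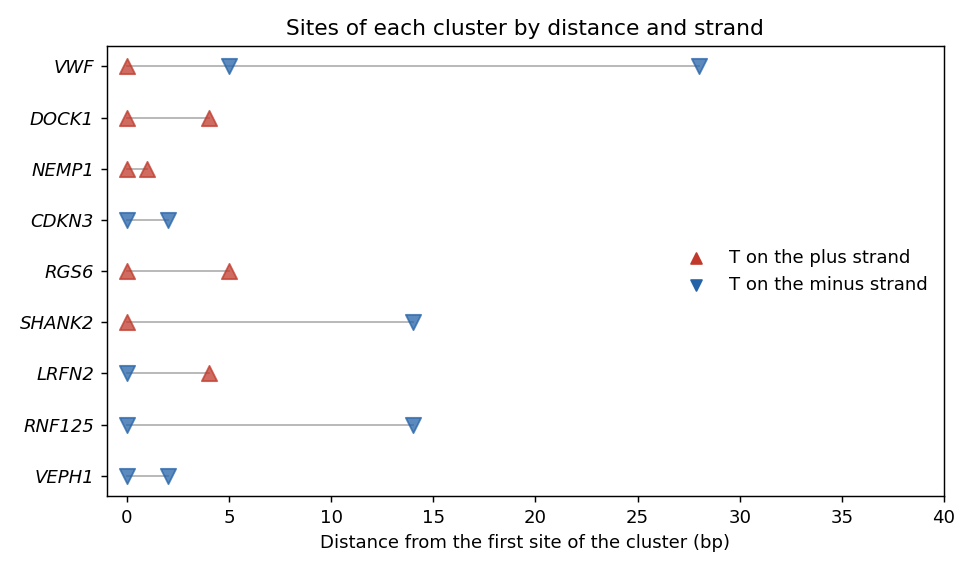
Sites of the 9 clusters drawn by their distance in bp from the first site of the cluster, with upward triangles for a T on the plus strand and downward triangles for a T on the minus strand. VWF has 3 sites over 28 bp, SHANK2 and RNF125 have pairs 14 bp apart, and the other 6 genes have pairs 1 to 5 bp apart.

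VWF encodes von Willebrand factor, the large blood glycoprotein that tethers platelets to injured vessel walls and carries clotting factor VIII. It was the gene with 3 sites in 1 cluster, on chromosome 12 at positions 6121701 (plus strand), 6121706 (minus) and 6121729 (minus), 2.94 to 2.97 kb inside the upper end of the gene (5948877 to 6124670). Coverage was 24 reads at each site in library 1 and 14 at each site in library 2. The first site had 6 C reads in library 1 and 4 in library 2, a C share of 26.8% ± 2.53 (SD, n = 2). The second had 6 and 3 (23.2% ± 2.53, SD, n = 2), and the third 5 and 5 (28.3% ± 10.5, SD, n = 2). Coverage thus did not change along the cluster or between strands, while C reads differed by at most 2 between neighbours. The 3 intervals over summed reads, 14.97 to 42.01%, 12.99 to 39.21% and 14.97 to 42.01%, overlapped over most of their width.

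DOCK1 encodes an exchange factor that activates the small GTPase Rac during cell migration and the engulfment of dying cells. Its sites lay on the plus strand of chromosome 10 at positions 126925610 and 126925614, 20.2 kb downstream of the listed start of this 547 kb gene. Each site was covered by 11 reads in library 1 and 12 in library 2, the lowest summed coverage among the 9 genes. In library 1 each site had 5 C reads (45.5%), and in library 2 the first had 3 (25.0%) and the second 4 (33.3%). The means were 35.2% ± 14.5 and 39.4% ± 8.57 (SD, n = 2), with intervals of 18.8 to 55.1% and 22.2 to 59.2%. Library 1 was the higher at both sites.

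RGS6, a regulator that speeds the shut-off of G protein signals and is known for its part in heart rate control, was the other gene with high C shares. Its sites were at positions 71905736 and 71905741 of chromosome 14, on the plus strand, in a gene of 763 kb (71867335 to 72630029). Coverage was 16 reads at each site in library 1 and 17 in library 2. The first site had 5 C reads in library 1 and 8 in library 2 (39.2% ± 11.2, SD, n = 2). The second had 4 and 8 (36.0% ± 15.6, SD, n = 2). Library 2 was the higher at both sites, the opposite order to DOCK1. Ordered by C share over summed reads, the first RGS6 site stood at place 32 of 967 and the second DOCK1 site at place 35, the highest places among the 19.

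NEMP1 and CDKN3 are genes of the nucleus and the cell cycle. NEMP1 encodes a protein of the inner nuclear membrane, and CDKN3 a phosphatase that removes the activating phosphate of CDK2. The NEMP1 sites were adjacent thymines on the plus strand of chromosome 12, at positions 57080655 and 57080656 (gene 57055643 to 57088627). Each had 4 C reads of 17 in library 1 and 5 of 19 in library 2, or 24.9% ± 1.97 (SD, n = 2). The CDKN3 sites lay 2 bp apart on the minus strand of chromosome 14, at positions 54419066 and 54419068 and 1.15 kb from the upper end of the gene (54397007 to 54420218). Each had 4 C reads of 13 in library 1 and 3 of 14 in library 2, or 26.1% ± 6.60 (SD, n = 2). In these genes coverage and C reads were the same at both sites of the cluster in both libraries. The same held for 1 of the 32 other close pairs.

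SHANK2 and LRFN2 are known from synapses. SHANK2 encodes a scaffold of the postsynaptic density, and LRFN2 a leucine-rich repeat adhesion protein. Each cluster had 1 site on either strand. SHANK2 (chromosome 11, 70467854 to 71253234) was the longest of the 9 genes at 785 kb. Its plus-strand site at 70947384 had 5 C reads of 18 in library 1 and 4 of 12 in library 2 (30.6% ± 3.93, SD, n = 2). The minus-strand site 14 bp on, at 70947398, had 6 of 19 and 3 of 14 (26.5% ± 7.18, SD, n = 2). Coverage at the SHANK2 pair therefore differed by 1 read in library 1 and 2 in library 2.

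LRFN2 (chromosome 6, 40391591 to 40587364) had the widest difference in C share within a pair among the 9 genes. The minus-strand site at 40474737 had 5 C reads of 24 in library 1 and 4 of 17 in library 2 (22.2% ± 1.91, SD, n = 2). The plus-strand site 4 bp on, at 40474741, had 7 of 23 and 6 of 17 (32.9% ± 3.44, SD, n = 2). Over summed reads these shares differed by 10.5 points, and each library put the plus-strand site higher. In both libraries the minus-strand site had the lowest number of C reads that the table's limits allow. A listed neighbour of like coverage could therefore not have had fewer. The intervals were 12.003 to 36.7% and 20.1 to 48.0%. Their overlap does not decide whether the sites differed, since sites 4 bp apart can share reads, and the difference was not tested.

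RNF125 encodes a ubiquitin ligase that marks the RNA sensor RIG-I for degradation. Its minus-strand sites at positions 32068964 and 32068978 of chromosome 18 (gene 32018825 to 32090806) had equal C reads but unequal coverage. In library 1 each site had 7 C reads, of 20 reads at the first site and 24 at the second. In library 2 each had 4, of 13 and of 19. The difference of 4 and 6 reads in coverage was the widest among the 9 genes. The C shares were 32.9% ± 2.99 and 25.1% ± 5.74 (SD, n = 2).

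VEPH1 encodes a protein with a pleckstrin homology domain that has been reported to restrain TGF-beta signalling. Its minus-strand sites at positions 157381580 and 157381582 of chromosome 3 lay close to the middle of the gene (157259742 to 157503605), at 50.0% of its length. The long non-coding RNA gene LOC101928236 (157173700 to 157393946) overlaps them, so they cannot be assigned to 1 of the 2 genes. Coverage was 17 reads at each site in library 1 and 24 in library 2. The first site had 4 C reads in library 1 and 9 in library 2 (30.5% ± 9.88, SD, n = 2), and the second 5 and 8 (31.4% ± 2.77, SD, n = 2). The sums over both libraries, 13 C reads of 41, were the same at both sites, although each library alone differed by 1 C read.

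**Figure D2:**
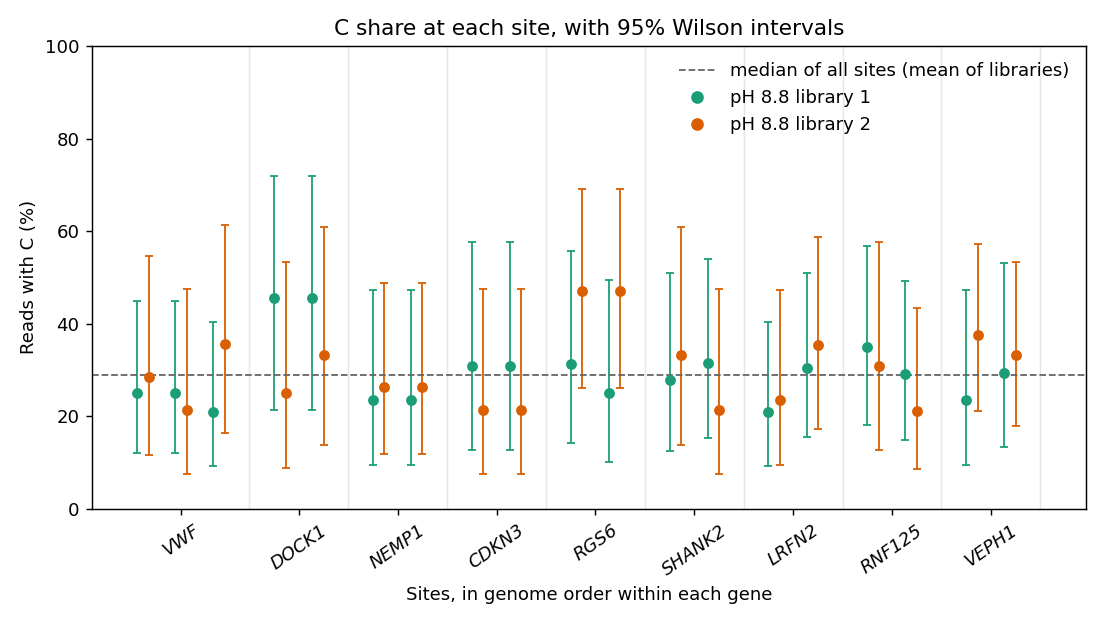
Share of reads with C (%, vertical axis) at each of the 19 sites, grouped by gene, with 1 point per pH 8.8 library and 95% Wilson intervals; the dashed line is the median of all 967 sites (29.0%, mean of libraries). All points lie between 20.8 and 47.1%, and the intervals of the 2 libraries overlap at every site.

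Over the 19 sites the mean C share was 29.2% in library 1 and 29.99% in library 2, or 29.6% ± 0.580 (SD of the library means, n = 2). The median of the sites' means was 28.3% (range 22.2 to 39.4%), against 29.0% over all 967 sites (range 20.9 to 46.5%). The means of the genes ran from 24.9% in NEMP1 to 37.6% in RGS6. CDKN3 and VWF, each at 26.1%, stood next to NEMP1 in that order, and neighbours in it differed by less than the larger of their SDs between libraries. C reads were at the lowest number that the table's limits allow for the coverage at 6 of the 19 sites in library 1 (31.6%, against 51.2% over all sites) and at 7 in library 2 (36.8%, against 47.9%).

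Whether any site differed between the libraries was tested by a two-sided Fisher exact test at each of the 967 sites with Benjamini-Hochberg adjustment. Among all sites 0% were called, and of the 19 sites 0. At an unadjusted p under 0.05 the count was also 0, for all sites and for the 19, and Boschloo's exact test gave 0 in each case. The lowest unadjusted Fisher exact p among the 19 was 0.282, at the second RGS6 site. Within the table's limits the test had no room at the 19 sites. At their coverage the lowest Fisher exact p that those limits allow was 0.0978, above 0.05. The count of 0 among the 19 was therefore fixed beforehand for that test. Over all 967 sites the lowest such p was 0.0212 and the median 0.266, so most sites could not reach 0.05 either. Adjustment raises p further, so the adjusted 0% over all sites had little or no room to be otherwise. A lack of calls here does not show that the libraries agreed.

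Coverage was equal at both sites, in both libraries, in 7 of the 10 neighbouring pairs of the 9 genes and in 7 of the 32 other close pairs. The 7 pairs were both of VWF and those of DOCK1, NEMP1, CDKN3, RGS6 and VEPH1. Distance differed between these sets, so pairs of like distance were also compared. At 1 to 5 bp, 6 of 7 pairs in the 9 genes and 5 of 12 other pairs had equal coverage. At 14 bp and over, the counts were 1 of 3 and 0 of 7. That pair was the VWF pair at 23 bp, the widest with equal coverage among all 42, while the widest among the others was 7 bp. The genes were named with these data in view, so this difference was not tested.

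**Figure D3:**
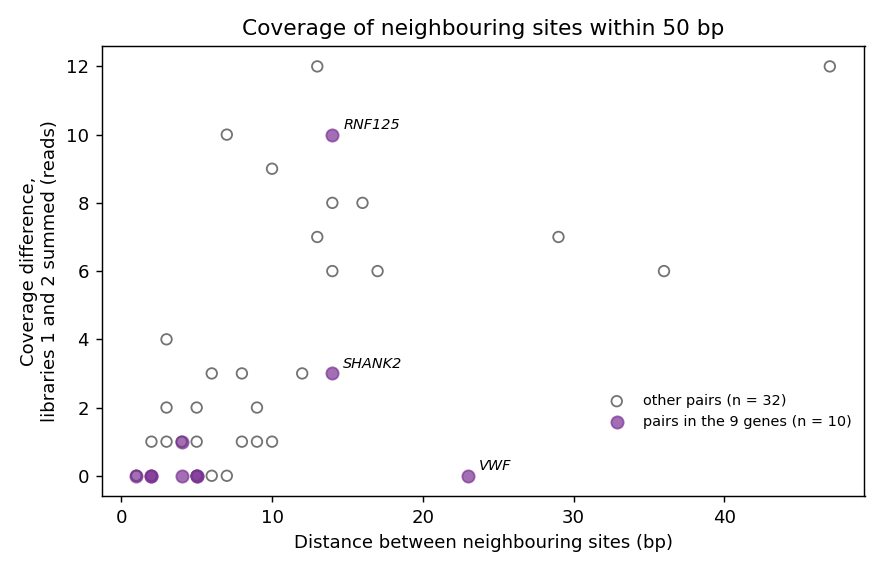
Absolute difference in coverage between neighbouring sites, summed over libraries 1 and 2 (reads, vertical axis), against their distance in bp, for the 10 pairs in the 9 genes (filled) and the 32 other pairs within 50 bp (open). Most pairs closer than 5 bp differ by 0 to 2 reads; the VWF pair at 23 bp differs by 0 and the RNF125 pair at 14 bp by 10.

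C reads were equal in both libraries in 3 of the 10 pairs (NEMP1, CDKN3 and RNF125) and in 8 of the 32 others. They were within 1 read of each other in both libraries in 8 of the 10 and 21 of the 32. The exceptions in the 9 genes were LRFN2 and the later pair of VWF. The intervals of the sites of a pair overlapped in all 10 pairs and in all 32 others. With shares held between 20% and 50% and a median interval width of 27.9 points at the 19 sites, overlap was to be had almost regardless of the counts, and it does not show that the sites of a pair were alike.

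A read that spans a cluster counts at each of its sites, so the counts of 1 cluster are not independent measurements. How many reads carried C at both sites cannot be told from these counts. In the DOCK1 cluster, if the same 11 reads of library 1 covered both sites, between 0 and 5 of them had C at both. For RGS6 in library 2 the counts allow between 0 and 8 reads of 17. The table's limit of 50% fixes the lower bound at 0 wherever coverage is equal, so that bound carries no information about these pairs.

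In 7 of 9 genes, all sites of the cluster differed between libraries in the same direction. At both sites the C share was higher in library 2 in NEMP1, RGS6, LRFN2 and VEPH1, and it was higher in library 1 in DOCK1, CDKN3 and RNF125. In SHANK2 the sites moved in opposite directions, and in VWF the middle site was lower and the outer sites were higher in library 2. Counted by neighbouring pairs, the direction was shared in 7 of 10, against 18 of the 32 other close pairs, 5 of 11 of them in genes. The difference of the cluster means, library 2 minus library 1, ran from -16.3 points in DOCK1 to 18.9 points in RGS6. Across the 10 pairs the differences of both sites had a Pearson r of 0.61 and a Spearman rho of 0.52, given as a description since the points share reads and libraries. Without DOCK1 and RGS6 the r was 0.19 and the rho 0.05 (8 pairs), so the relation rested on those genes. In the 32 other pairs r was 0.51 and rho 0.41. Of these, the 11 in genes had an r of 0.20 and a rho of -0.10, and the 21 outside genes 0.60 and 0.57. At 1 to 5 bp the direction was shared in 6 of 7 pairs of the 9 genes (r 0.85, rho 0.75), DOCK1 and RGS6 among them. In other pairs at 1 to 5 bp it was shared in 7 of 12 (r 0.25, rho 0.30), and the difference was not tested.

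**Figure D4:**
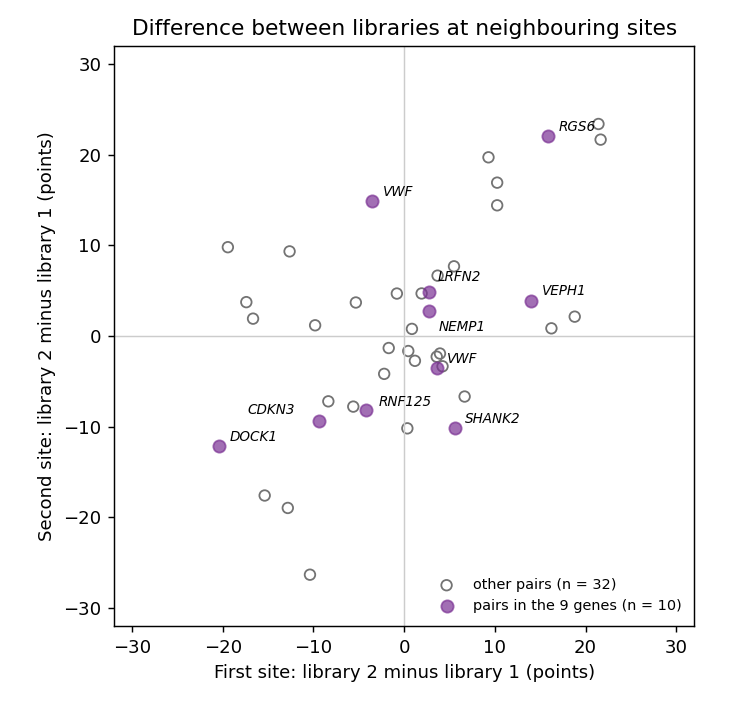
Difference in C share between libraries (library 2 minus library 1, percentage points) at the first site of each neighbouring pair (horizontal axis) against the second site (vertical axis), for the 10 pairs in the 9 genes (filled, named) and the 32 other close pairs (open). DOCK1 lies at the lower left and RGS6 at the upper right; SHANK2 and both VWF pairs lie where the sites moved in opposite directions.

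The place of the clusters along their genes varied. They lay from 3.69% of the gene's length from its lower end (DOCK1) to 98.3% (VWF). The table of gene starts gives the strand of 6 of the 9 genes, namely DOCK1, NEMP1, CDKN3, RGS6, RNF125 and VEPH1. In DOCK1, RGS6 and VEPH1 the thymines read as C were on the coding strand, and in NEMP1, CDKN3 and RNF125 on the template strand. That is 6 of 12 sites on the coding strand (50.0%), against 219 of 430 sites that lay in a single gene of listed strand (50.9%).

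Of the 19 sites, 0 lay in a promoter window (250 bases before to 50 after a listed start), against 5 of all 967 (0.517%). The 7 sites of VWF, SHANK2 and LRFN2 lie in genes without a listed start here. The NEMP1 pair lay closest to a listed start, 1864 and 1865 bp upstream of it but inside the annotated gene. The RGS6 pair was also inside its gene and upstream of the nearest listed start, by 26.4 kb. The CDKN3 sites were 22.1 kb, the RNF125 sites 50.1 to 50.2 kb and the VEPH1 sites 113.9 kb downstream of their nearest listed start. Exon, intron, UTR and the bases around the sites were not analysed here.

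The genes were long and their surroundings varied. Their lengths ran from 23.2 kb in CDKN3 to 785 kb in SHANK2, with a median of 196 kb, against 78.4 kb over the 513 protein-coding genes with a site and 24.1 kb over all 20056. Of the 9, 6 exceeded the median of genes with a site. Within 500 kb of the clusters lay 7 (SHANK2) to 50 (NEMP1) annotated genes. The median over the 19 sites was 16 such genes, against 31 over all sites. The next site outside the cluster was 0.351 Mb away for NEMP1 and 22.5 Mb for RNF125, with a median of 1.06 Mb.

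Relatives and partners of the 9 genes were looked up in lists that cover 118 genes, and 3 of them held a site (2.54%, against 2.56% of all protein-coding genes). Among 16 genes of VWF processing and binding, STAB2, a scavenger receptor that clears von Willebrand factor, held 1 site (chromosome 12, position 103621560). It had 4 C reads of 16 in library 1 and 7 of 15 in library 2, or 35.8% ± 15.3 (SD, n = 2). Among 10 relatives and partners of RGS6, RGS7 of the same subfamily held 1 at position 241033215 of chromosome 1 (4 of 15 and 3 of 10, 28.3% ± 2.36, SD, n = 2).

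Among 7 genes of TGF-beta signalling, SMAD3, a transcription factor activated by the receptor, held 1 site at position 67168027 of chromosome 15 (8 of 35 and 4 of 18, 22.5% ± 0.449, SD, n = 2). The list of 17 DOCK family and engulfment genes had 0 with a site, as did those of 13 nuclear envelope genes, 19 cyclin-dependent kinase genes and their regulators, 11 postsynaptic scaffold genes, 17 synaptic adhesion genes and 8 genes of RNF125 relatives and RIG-I signalling. Each of the 3 relatives had a single site, and none shared the clustering of the 9 genes.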

How the data were processed

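For each site and each of the 2 pH 8.8 libraries, the authors deposited counts of all reads and of C reads, and a fraction that is their ratio, per the file headers. It matched the counts at all 967 sites within 1e-09. The submitters' processing notes name hg38, Trim Galore, Bowtie2 and MACS2 2.2.6; the site caller and its settings are not given in the sources used here. A second deposited table has no header. Its 5 number columns per block repeat the coverage, C reads and share, and its last 2 hold the C reads in 1 column and 0 in the other, by strand (488 plus, 479 minus). Whether they count bases or read directions could not be told, so they were not used and the planned read-strand test was not run.

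Sites were assigned to genes by RefSeq start and end (GRCh38.p14). At 5 of 5 sites inside a RefSeq promoter sequence, the reference base was the listed one. The member genes and gene lists were chosen with earlier results of these data known. The 9 genes, genes overlapping their sites, and listed relatives with a site are named with values; PTPRT, GARNL3 and LOC101928236 mark the distance limit or an overlap. Levels are C reads over coverage, with the mean ± SD over 2 libraries and 95% Wilson intervals on summed reads. Fisher and Boschloo exact tests ran over all sites with Benjamini-Hochberg adjustment and a threshold of 0.05. The calculation was also tested on simulated data. That run does not show that a difference could be called within the table's limits on C share. The lowest unadjusted Fisher exact p that those limits allow was 0.0978 at the 19 sites and 0.0212 over all 967. Its median over all 967 was 0.266. Alternatives were a minimum of 15 reads, 1 site per cluster, summed reads, each library alone, distances of 10 bp and 1 kb, and genes widened by 1 kb. Calculations used scipy 1.17.1, pandas 2.3.3 and numpy 2.4.6 under Python 3.11.15, and figures matplotlib 3.10.9.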

Additional observations from a re-analysis of the deposited data

How the results depend on the processing

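The mean C share of the 19 sites (29.6%) was 28.5% with 1 site per cluster, which leaves 9 sites, 29.7% at a minimum of 15 reads (9 sites) and 29.2% over summed reads. It ranged from 29.17 to 29.99% without each replicate in turn. The number of sites that differed between libraries was 0 under each alternative run. For the Fisher exact test at the 19 sites this was fixed beforehand, since the lowest p that the table's limits allow there was 0.0978. Over all 967 sites the median of that lowest p was 0.266, so the adjusted count there had little or no room either. The count of 0 therefore does not show that the result is robust. Of the close pairs, 7 of 10 lay on the same strand at 50 bp and at 1 kb, and 5 of 7 at 10 bp. Widening genes by 1 kb left 19 sites and brought the listed relatives with a site from 3 to 4. The r of 0.19 without DOCK1 and RGS6 is an alternative chosen after seeing the data. No paired analysis was possible because only the pH 8.8 libraries were analysed here. The alternatives of the read-strand test were not run. With 11 to 24 reads per site and library, differences within a cluster, such as that in LRFN2, were not tested.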
